A study of Mus musculus with 20 samples.

Results

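The interleukin and interleukin receptor genes were followed through lists of accessible chromatin sites. The sites were mapped by ATAC-seq, where the Tn5 transposase marks DNA that is free to be cut. Members were the genes whose symbol, as the peak annotation gives it, begins with Il and a digit, leaving out the IL-1 and IL-18 ligands and receptors named Il1a, Il1b, Il1r or Il18 and the gene Il7r. The rule found 58 of the 19738 genes with a peak, with 1729 of the 504887 peaks in 10 lists. By role they were 27 receptor genes, 30 ligand genes and Il4i1, an amino acid oxidase named for its induction by IL-4. A further 10 symbols of the RefSeq gene table met the rule without any peak assigned to them, namely Il11, Il11ra2, Il13ra2, Il17rb, Il17re, Il1f5, Il1f6, Il1f8, Il25 and Il4i1b.

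The cells were cultured mouse ER-Hoxa9-Lys-GFP cells of strain C57BL/6, grown in medium with stem cell factor. All groups carried the fusion of the homeobox factor Hoxa9 to the estrogen receptor and the Lys-GFP reporter. The groups were 0 h, kept with estradiol (E2, the ligand of the fusion), and 4, 8, 12, 24, 36, 48, 72, 96 and 120 h after E2 was washed out, with 2 replicates each and 20 samples in all. Nuclei were split before transposition, per the protocol, and the 2 replicates of a time may be technical. Both replicates of a time share 1 deposited peak list, so there is no spread between replicates and no test. Read depth is unknown, because the lists hold positions and no read counts. Intervals are 95% Wilson intervals whose width reflects counting error alone. A list does not tell a site open in fewer cells from a site less open per cell.

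Interleukins are secreted signal proteins of blood and immune cells. Most act through paired receptor chains, of which several serve many ligands: the common gamma chain Il2rg, the common beta chain Csf2rb, the gp130 chain Il6st and the chains Il10rb and Il17ra. Most of the receptors have no enzyme of their own and signal through Jak kinases and Stat factors. IL-3 and IL-5 act on myeloid progenitors and eosinophils, and mature myeloid cells respond to IL-4, IL-6 and IL-10.

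The lists held fewer peaks at interleukin genes late in the course, and nearly all of the difference was distal. Promoter peaks were those at most 1000 bp from a transcription start site (TSS) as annotated, and distal peaks the rest. Series of 10 values below run through 0, 4, 8, 12, 24, 36, 48, 72, 96 and 120 h. The members had 197, 185, 184, 210, 210, 199, 197, 173, 100 and 74 peaks. Their distal peaks numbered 177, 170, 170, 191, 194, 180, 180, 157, 84 and 60, and their promoter peaks 20, 15, 14, 19, 16, 19, 17, 16, 16 and 14. The number stayed between 173 and 210 up to 72 h and was 100 at 96 h. At 120 h the distal peaks were at 33.9% of their 0 h number for the members and at 32.8% for all genes. The promoter peaks were at 70.0% for the members and at 84.5% for all genes. The members made up 0.313% (0.25 to 0.393%) of all peaks at 120 h, against 0.356% (0.31 to 0.41%) at 0 h, and these intervals overlap. When each list was cut to its 23620 widest peaks, the length of the 120 h list, the members had 74 peaks at 120 h, against 90 at 0 h. On the log2 scale that ratio was -0.28 (-0.72 to 0.16), against -1.41 in the full lists. For all genes it was 0 at equal length, by construction, and -1.23 in the full lists.

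**Figure D1:**
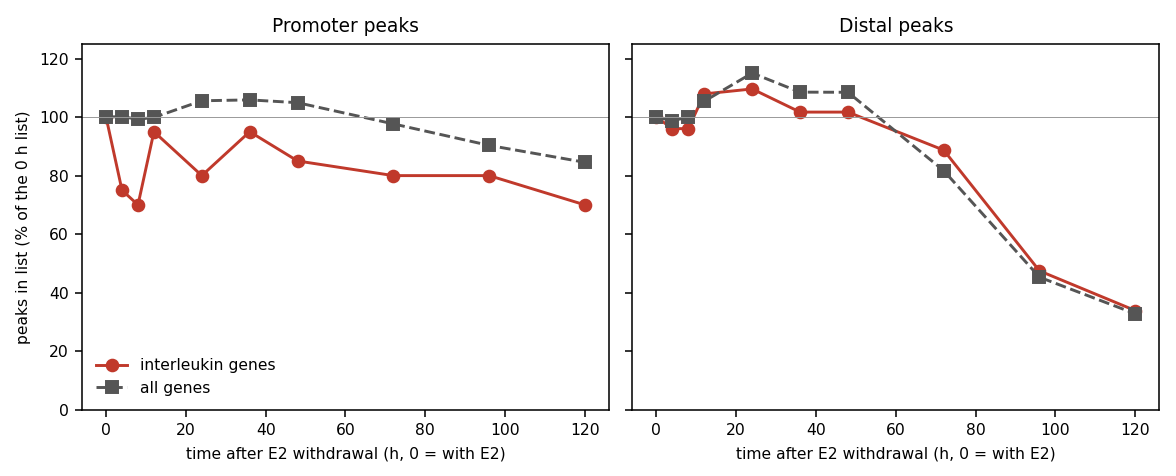
Promoter peaks (left) and distal peaks (right) in each list as a percentage of the 0 h list, against time in hours, for the 58 interleukin genes (red circles) and all genes (grey squares); 1 list per time, so there are no error bars. The distal lines run close together and end at 33.9% and 32.8%, while the members' promoter line, which rests on 14 to 20 peaks, ends at 70.0%, below the 84.5% of all genes.

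Set against the 0 h list, 47 of the 53 members with a peak at either time had fewer peaks at 120 h (88.7%, 77.4 to 94.7%), against 71.4% of all genes so compared. More peaks at 120 h were found at 5 members (9.43%, 4.10 to 20.3%), against 7.82% of all genes. The median difference between 120 h and 0 h was -2 peaks for members and -1 for all genes. Members had a median of 4 sites per gene, against 3 for all genes, counting sites merged across the lists. Of the members, 24 had a promoter peak in any list (41.4%), against 60.3% of all genes, and 5 had one in all 10 lists (8.62%), against 25.3%. At 120 h 26 members had no peak (44.8%), against 36.4% of all genes, and 21 of these members had one at 0 h. Receptor genes had 40 peaks at 120 h, against 112 at 0 h, and 24 of 27 had fewer. Ligand genes had 34 peaks at 120 h, against 84 at 0 h, and 22 of 30 had fewer, while 5 had no peak at either time. By family, the genes of IL-3 and IL-5 and their receptors had 3 peaks at 120 h, against 16 at 0 h, or 18.8%. The IL-17 family of ligands and receptors had 9, against 17, or 52.9%. The other families lay between these values, except a mixed group of Il16, Il33, Il34, Il1f9, Il1f10 and Il4i1 at 62.5%. The groups are small, with 3 to 21 peaks at 120 h. Some sites were listed as more than 1 peak. The Il3ra promoter, open in every list, counted as 2 peaks at 0 h and 1 at 120 h. Il5 had 4 peaks at 0 h but 2 regions in all, so the 18.8% rests partly on such splits.

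**Figure D2:**
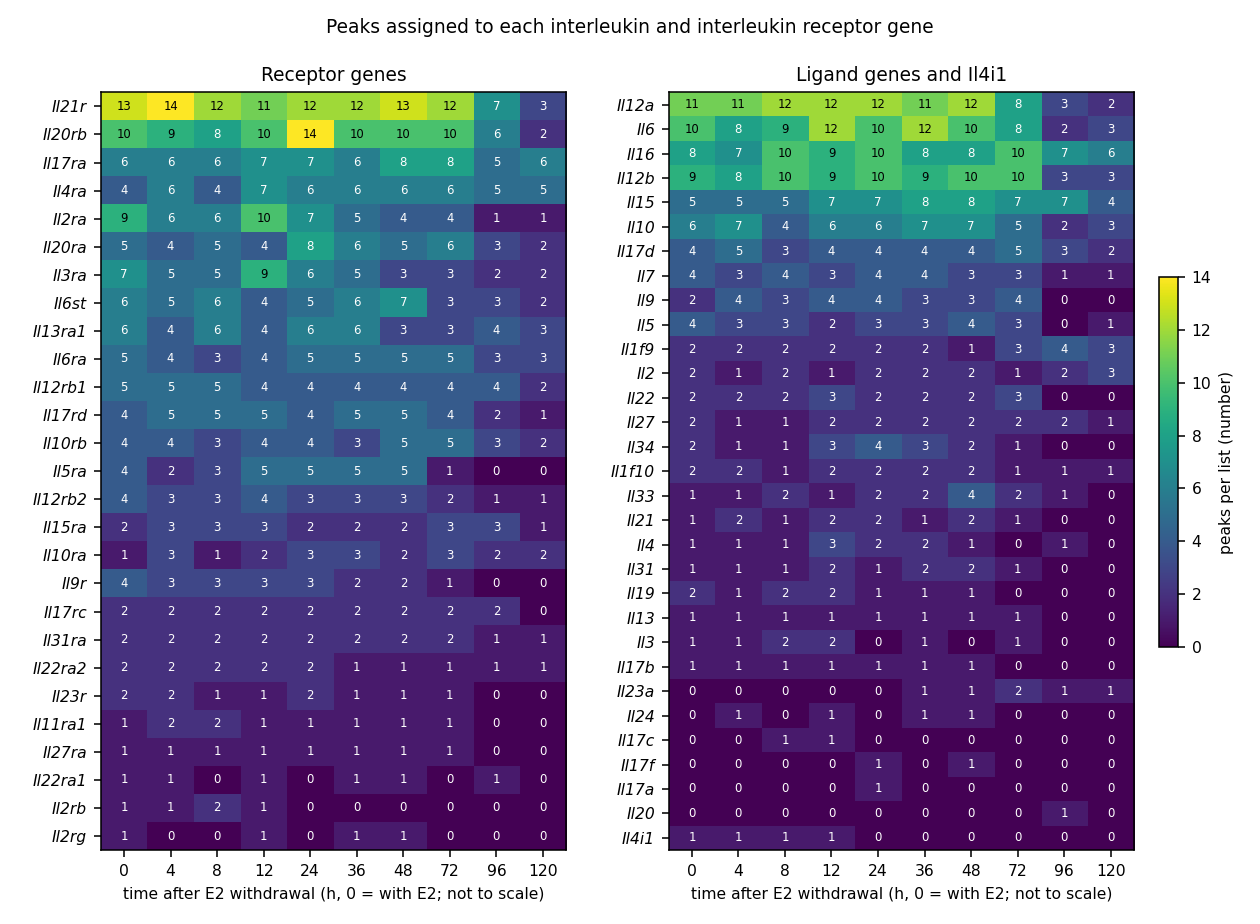
Number of assigned peaks (colour and digits) for each of the 58 genes (rows, receptors left, ligands and Il4i1 right) in each of the 10 lists (columns, hours after E2 withdrawal). Il21r and Il12a, among the richest loci, had 3 and 2 peaks at 120 h, against 13 and 11 at 0 h, and Il4ra and Il17ra had 5 and 6, against 4 and 6.

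Promoters were the first class followed. A promoter peak was listed for 14 members at 120 h, against 18 at 0 h, with 11 in common. Of the 18 listed at 0 h, 7 were not listed at 120 h (38.9%, 20.3 to 61.4%), against 22.8% for all genes, and of the 14 listed at 120 h, 3 were not listed at 0 h (21.4%, 7.57 to 47.6%), against 14.5% for all genes. Both intervals include the value for all genes. The promoters listed at 120 h and not at 0 h belonged to the ligand genes Il1f9, Il23a and Il17d. Those listed at 0 h and not at 120 h belonged to Il6, Il12a, Il15, Il4i1 and the receptor genes Il2rg, Il11ra1 and Il15ra. Il4ra, Il21r, Il3ra, Il12rb2 and Il16 had a promoter peak in all 10 lists.

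The 250 bases before the TSS are shown for 5 of these promoters, to set a late one, a pair that ended and a pair that stayed side by side. They come from the RefSeq table of GRCm38.p6, the same sequence as mm10, all on the plus strand, and each window is overlapped by the promoter peaks described next. They lie at chr2:24186226-24186475 (Il1f9), chr5:30012864-30013113 (Il6), chr7:44836038-44836287 (Il4i1), chr7:125552021-125552270 (Il4ra) and chr7:125603179-125603428 (Il21r). Capitals mark matches, on either strand, to TGANTCA (AP-1), TTGCNNAA (C/EBP), AGGAAGT (ETS) and GGGANTTTC, most of an NF-kB site.
Il1f9: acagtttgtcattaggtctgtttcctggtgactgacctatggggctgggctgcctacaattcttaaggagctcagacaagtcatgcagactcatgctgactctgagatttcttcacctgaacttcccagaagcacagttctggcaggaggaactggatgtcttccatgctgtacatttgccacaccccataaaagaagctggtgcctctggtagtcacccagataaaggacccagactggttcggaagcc
Il6: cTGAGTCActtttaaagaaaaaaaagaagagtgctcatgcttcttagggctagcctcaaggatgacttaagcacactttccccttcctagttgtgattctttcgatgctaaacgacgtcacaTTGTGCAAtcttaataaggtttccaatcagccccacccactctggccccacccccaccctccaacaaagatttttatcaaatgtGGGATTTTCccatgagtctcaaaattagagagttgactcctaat
Il4i1: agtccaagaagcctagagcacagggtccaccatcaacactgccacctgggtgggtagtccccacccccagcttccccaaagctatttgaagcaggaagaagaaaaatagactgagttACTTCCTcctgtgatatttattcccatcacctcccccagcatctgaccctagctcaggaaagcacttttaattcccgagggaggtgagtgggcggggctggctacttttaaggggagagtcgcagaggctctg
Il4ra: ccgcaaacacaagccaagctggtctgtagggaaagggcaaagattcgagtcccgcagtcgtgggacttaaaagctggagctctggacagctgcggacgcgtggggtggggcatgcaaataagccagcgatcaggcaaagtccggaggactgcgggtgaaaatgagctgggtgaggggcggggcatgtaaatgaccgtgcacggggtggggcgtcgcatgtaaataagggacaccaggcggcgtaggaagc
Il21r: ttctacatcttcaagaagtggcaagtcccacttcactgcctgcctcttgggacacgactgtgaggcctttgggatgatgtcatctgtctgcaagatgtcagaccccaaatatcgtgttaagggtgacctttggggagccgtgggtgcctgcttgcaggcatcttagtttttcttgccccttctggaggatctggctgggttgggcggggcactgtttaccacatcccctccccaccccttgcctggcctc

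The Il6 window held 3 matches, at -249 to -243 (AP-1), -128 to -121 (C/EBP) and -44 to -36 (NF-kB) relative to the TSS. The Il4i1 window held 1, at -133 to -127 (ETS). The windows of Il1f9, Il4ra and Il21r held none. Of 32851 windows of the same length in the table, 6.75% held the AP-1 letters, 9.56% the C/EBP letters, 7.69% the ETS letters and 0.941% the NF-kB letters. The Il4ra window held 17 CG pairs, against a median of 6 over all windows. The window of Il21r, which also stayed, held 4, those of Il6 and Il4i1 held 3 each, and that of Il1f9 held 1. A match is a description of letters and not of binding.

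Il1f9, which encodes the IL-36 gamma ligand (chromosome 2, 24186476 to 24193567 in mm10), had both a late promoter peak and a gained site. It had 2, 2, 2, 2, 2, 2, 1, 3, 4 and 3 peaks. Its promoter peak appeared in the 96 and 120 h lists only, with widths of 330 and 302 bp. Il23a, the p19 subunit that joins the Il12b product to form IL-23, had 0 peaks up to 24 h, then 1, 1, 2, 1 and 1. Its promoter was listed at 36, 48, 96 and 120 h and not at 72 h, so its presence was broken. Il17d, an IL-17 family ligand, had 4, 5, 3, 4, 4, 4, 4, 5, 3 and 2 peaks, with a promoter peak at 4, 72, 96 and 120 h. The Il17d promoter therefore appeared once early as well. Its peaks lay 689, 635, 939 and 800 bp from the TSS at these times, so they would not count at a promoter distance of 500 bp.

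Il6 (chromosome 5, 30013114 to 30019975), the ligand of Il6ra and gp130, had 10, 8, 9, 12, 10, 12, 10, 8, 2 and 3 peaks. Its promoter peak was 795 bp wide at 72 h, against 972 bp at 0 h, and was listed at each time up to 36 h and at 72 h, but not at 48, 96 or 120 h. The Il4i1 promoter was listed from 0 to 12 h, with widths of 502, 528, 621 and 630 bp, and in no later list, and it was the gene's only region. Il15, a ligand of lymphoid cells that myeloid cells present on Il15ra, had a promoter peak in each list up to 96 h and none at 120 h. Its receptor chain Il15ra had one at 0, 4, 8, 12, 72 and 96 h. Il2rg, the common gamma chain, had its 1 region, at the promoter, in the 0, 12, 36 and 48 h lists only. Il11ra1, the IL-11 receptor, had a promoter peak from 0 to 72 h. The 1 promoter peak of Il12a lay 909 bp from its TSS and was listed at 0 h only. Such on and off listing was common: of the 258 member regions present in at least 2 lists, 98 (38.0%, 32.3 to 44.0%) were listed, absent and listed again, against 38.5% of all regions.

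Distal and promoter sites were then sorted together. Peaks of different lists that overlapped by at least 1 bp were merged into regions, 308 of them at members, of 88351 in all. Gained regions were those missing from the 0, 4 and 8 h lists and found in the 72, 96 and 120 h lists, and lost regions those with the reverse pattern. A constant region was in all 10 lists. Transient regions were missing at 0, 4, 96 and 120 h but found in 2 or more successive lists between 12 and 72 h. The members had 8 gained regions (2.60%, 1.32 to 5.04%), against 2.38% over all regions, and 32 lost regions (10.4%, 7.46 to 14.3%), against 12.5%. They had 31 transient regions (10.1%, 7.18 to 13.9%), against 9.65%, and 35 constant regions (11.4%, 8.29 to 15.4%), against 13.8%. Each interval includes the value of all regions. Promoters were 7.79% of member regions, against 14.5% of all regions. Among distal regions alone, 10.6% (7.50 to 14.7%) were constant for the members, against 9.13% for all. The counts moved with the definition: 69 regions were lost without the 72 h list, 85 with 2 early and 2 late lists and 17 with each list cut to its 23620 widest peaks. Gained regions numbered 13 without the 120 h list. Keeping the widest 50% of peaks per list left 2 gained and 8 constant regions, and 17 regions were constant at equal length. These recounts were not made over all regions, so they cannot be set beside the whole series. The other 202 member regions followed none of these patterns. They include regions listed up to 72 h and missing at 96 and 120 h, such as both regions of Il9. By definition the lost class leaves these out, and they enter it without the 72 h list. Of the 308 regions, 50 were listed at 1 time.

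**Figure D3:**
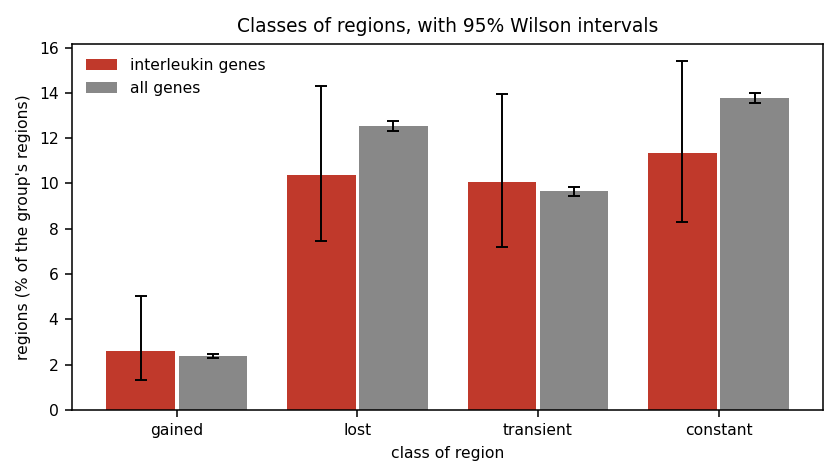
Share of regions (percent) that were gained, lost, transient or constant, for the 308 regions of interleukin genes (red) and all 88351 regions (grey); bars are shares and whiskers 95% Wilson intervals. The whiskers of the members, for example 1.32 to 5.04% for gained regions, reach the value of all regions in each class.

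At least 1 gained region was found at 7 members (12.1%, 5.97 to 22.9%), against 8.72% of all genes, and at least 1 lost region at 26 (44.8%, 32.7 to 57.5%), against 35.2%. The 8 gained regions lay at Il4ra, with 2, and at Il10rb, Il15, Il16, Il27, Il20rb and Il1f9, with 1 each. None was a promoter, against 7.86% of all gained regions, and 7 lay within 50000 bp of the TSS, as did 1566 of the 2100 gained regions in all. The presence that lasted to 120 h began at 12 h for 1, at 24 h for 3 and at 72 h for 4, against 21.2%, 30.6% and 20.9% of all gained regions. The lost regions lay at receptor genes in 19 cases, at ligand genes in 12 and at Il4i1 in 1. The unbroken presence from 0 h ended at 8 h for 6, at 12 h for 6, and at 24 h and at 36 h for 4 each, while 12 regions (37.5%) were listed without a gap up to 48 h, against 36.2% of all lost regions. The ends at 8 h and at 12 h, each 18.8% of the members' lost regions, also lay near the 17.5% and 18.6% of all lost regions. No lost region could end later than 48 h, because absence at 72 h was required.

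**Figure D4:**
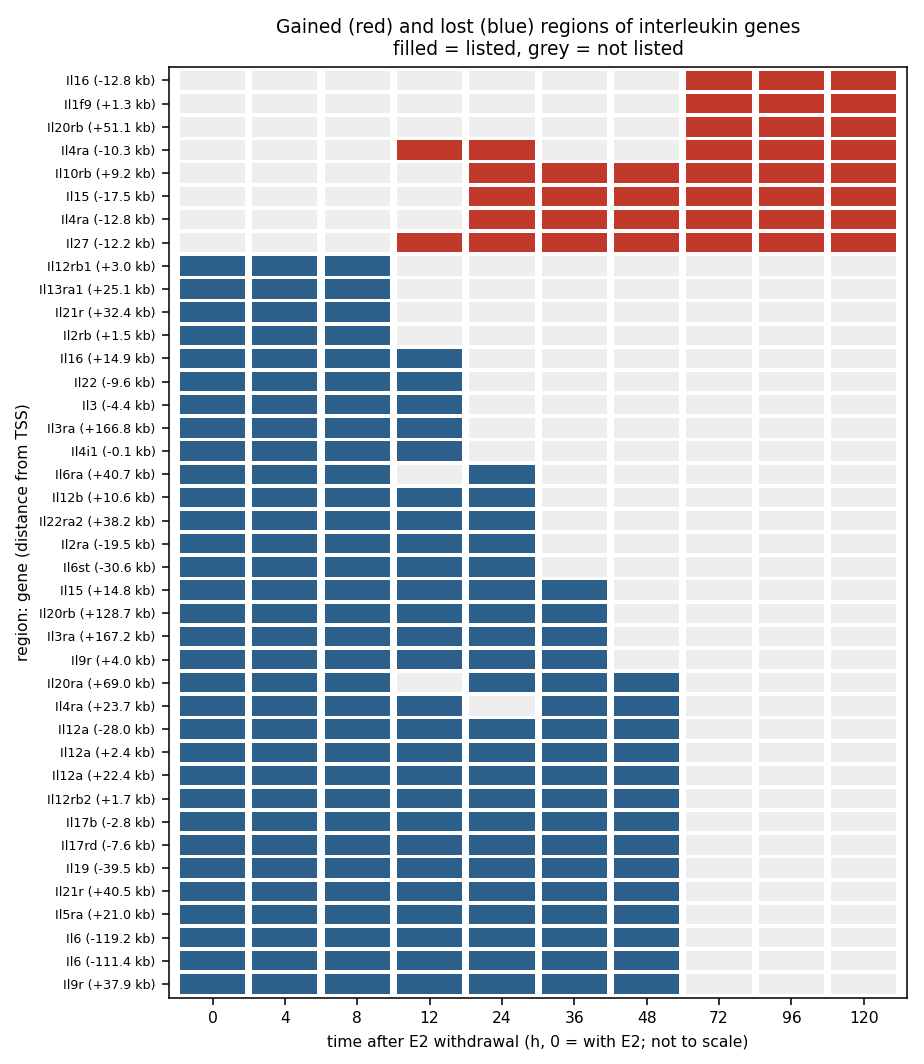
Presence of the 8 gained regions (red) and 32 lost regions (blue) in each list, with 1 row per region, labelled by gene and distance from the TSS in kb, and 1 column per list; grey means not listed. The gained rows start at 12, 24 or 72 h, and 12 of the lost rows run to 48 h without a gap.

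Among the receptors, Il4ra, the chain that binds IL-4 and serves IL-13 as well (chromosome 7, 125552271 to 125579474), had 4, 6, 4, 7, 6, 6, 6, 6, 5 and 5 peaks. It was 1 of the 5 members with more peaks at 120 h, with 5, against 4 at 0 h. Its gained regions lay upstream, at chr7:125539216-125539688 (-12833 bp from the TSS, listed from 24 h on) and at chr7:125541795-125542340 (-10251 bp, listed at 12 and 24 h and from 72 h on). Its promoter and 2 sites in the first intron, 3495 and 9291 bp from the TSS, were constant. Its lost region, 23740 bp from the TSS in the last exon, was listed up to 48 h with a gap at 24 h. Il21r, the IL-21 receptor (chromosome 7, 125603252 to 125634397), is the next member downstream. It had 13, 14, 12, 11, 12, 12, 13, 12, 7 and 3 peaks over 19 regions, the most of any member. Its promoter and an intronic site 10397 bp from the TSS were constant. Its lost regions lay 32435 bp and 40497 bp from the TSS, and were listed up to 8 h and up to 48 h. The region at 40497 bp lay past the end of Il21r, in exon 34 of 37 of another gene. Il13ra1, the chain that pairs with Il4ra for IL-13, on the X chromosome, had 6, 4, 6, 4, 6, 6, 3, 3, 4 and 3 peaks, with constant sites at -29048 and -10902 bp.

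**Figure D5:**
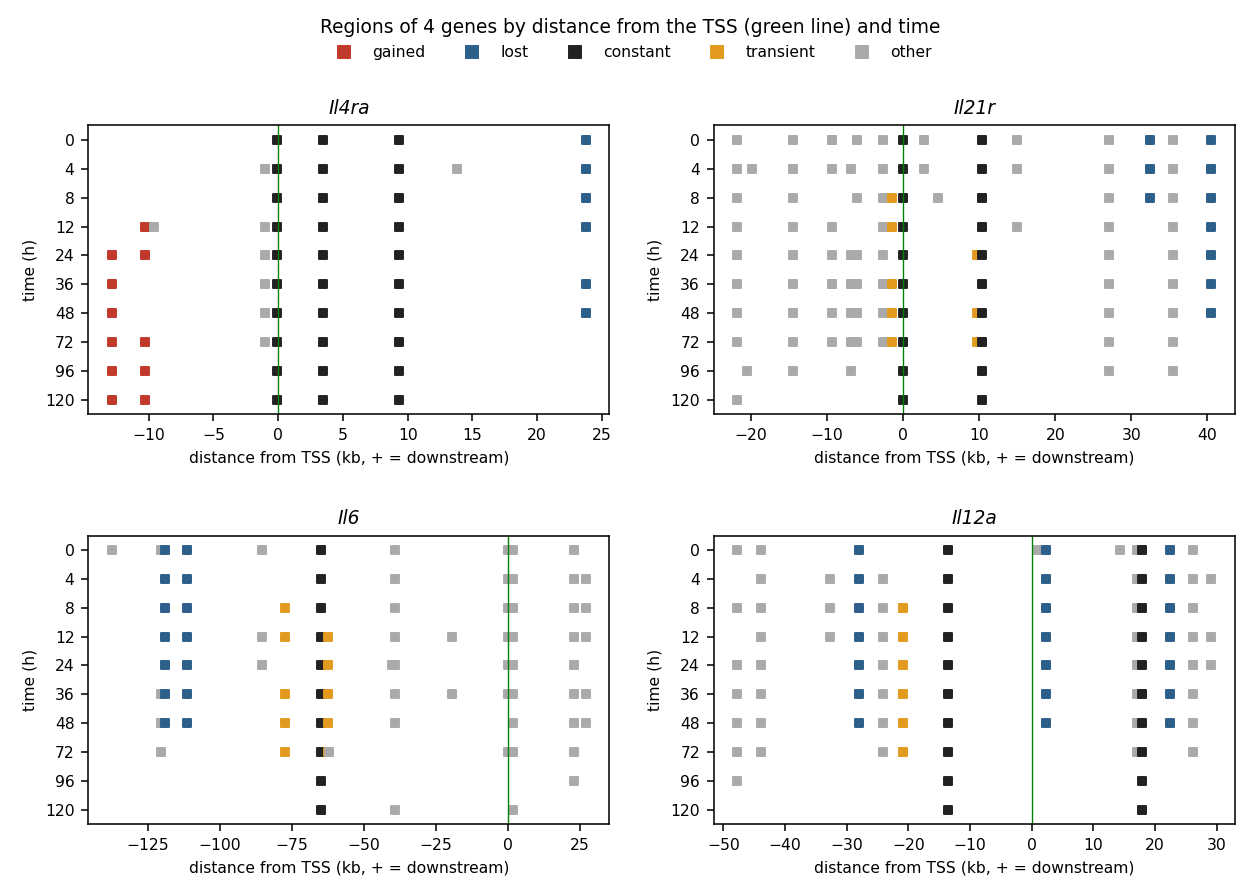
Regions of Il4ra, Il21r, Il6 and Il12a by distance from the TSS in kb (x axis, green line at the TSS) and list time in hours (y axis, 0 h at the top); each square is a region listed at that time, coloured by class. The red gained sites of Il4ra lie at -12833 and -10251 bp, and in the other 3 genes the 96 and 120 h rows hold fewer squares than the 0 h row, with black constant sites remaining.

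The receptors of IL-3, IL-5 and IL-9 had few late sites. Il3ra, the IL-3 receptor chain, had 7, 5, 5, 9, 6, 5, 3, 3, 2 and 2 peaks. Its promoter and a site 131907 bp from the TSS were constant, and its lost regions lay 166802 and 167231 bp away. Il5ra, the eosinophil growth factor receptor, had 4, 2, 3, 5, 5, 5, 5, 1, 0 and 0 peaks. Its promoter was listed at 12 and 24 h only and was 1 of its 3 transient regions. Il9r, the IL-9 receptor, had 4, 3, 3, 3, 3, 2, 2, 1, 0 and 0 peaks, and 2 of its 4 regions were lost.

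Of the 8 receptor genes of the gp130 and IL-12 group, 3 had a promoter peak at 120 h, against 4 at 0 h, Il11ra1 being the difference. Il6ra, the IL-6 binding chain, had 5, 4, 3, 4, 5, 5, 5, 5, 3 and 3 peaks, with a promoter peak at 0 h and from 12 h on. Its constant sites lay in introns, 1785 and 25461 bp from the TSS. Il6st, which encodes gp130, had 6, 5, 6, 4, 5, 6, 7, 3, 3 and 2 peaks, with a promoter peak in 8 lists, 12 and 24 h being the exceptions. Il12rb1, shared by the IL-12 and IL-23 receptors, had 5, 5, 5, 4, 4, 4, 4, 4, 4 and 2 peaks. It had no promoter peak, and its 2 constant regions lay at -4283 and -1791 bp. Its partner Il12rb2 had 4, 3, 3, 4, 3, 3, 3, 2, 1 and 1 peaks, and the 1 left at 120 h was the promoter.

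Among the receptors of the IL-10 family 5 of 6 had fewer peaks at 120 h, and among those of the IL-17 family 2 of 3. Il17rc and Il17rd, further IL-17 family chains, had 0 and 1 peaks at 120 h, against 2 and 4 at 0 h. Il20ra and Il22ra1, chains of the IL-20 and IL-22 receptors, had 2 and 0, against 5 and 1. Il17ra (chromosome 6, 120463181 to 120483731) had 6, 6, 6, 7, 7, 6, 8, 8, 5 and 6 peaks, as many at 120 h as at 0 h. Of its 9 regions 3 were constant and none was lost, and its promoter was listed at 0 h and from 12 h on. Il10ra, the IL-10 binding chain, had 1, 3, 1, 2, 3, 3, 2, 3, 2 and 2 peaks. The second of its late sites, at -11772 bp, was listed from 4 h on, so it is not in the gained class. Il10rb, the chain shared with IL-22 and other ligands, had 4, 4, 3, 4, 4, 3, 5, 5, 3 and 2 peaks. Its gained region lay in intron 4 at chr16:91414904-91415998, 9178 bp from the TSS, and was listed from 24 h on. The other 120 h peak of Il10rb was its promoter. Il20rb, a chain of the IL-20 and IL-24 receptors, had 10, 9, 8, 10, 14, 10, 10, 10, 6 and 2 peaks. Its gained region lay far downstream, 51071 bp from the TSS, and its other peak at 120 h was 46128 bp away.

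Among the ligands, Il12a and Il12b, whose products form IL-12, had dense loci with fewer peaks at 96 and 120 h. Il12a had 11, 11, 12, 12, 12, 11, 12, 8, 3 and 2 peaks over 15 regions. The 2 left at 120 h were its constant sites, at -13554 and 17826 bp, and its 3 lost regions were all listed up to 48 h. Il12b had 9, 8, 10, 9, 10, 9, 10, 10, 3 and 3 peaks over 15 regions. Its constant site lay at -21815 bp, and its promoter peak was listed in 9 lists, 96 h being the exception. Il12b also had 3 transient regions, as did Il20rb and Il5ra, the most of any member. At Il6, the lost regions lay far upstream, at -119180 and -111381 bp, and the constant site at -64762 bp. At 120 h, Il6 had that site, a site at -39165 bp and an intronic site 1646 bp from the TSS.

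Il15 and Il16 kept more. Il15 (chromosome 8, 82331624 to 82403252) had 5, 5, 5, 7, 7, 8, 8, 7, 7 and 4 peaks. Its gained region, upstream of the gene at chr8:82419833-82420382 (-17498 bp), was listed from 24 h on, beside 3 constant intronic sites. Il16, a precursor of a chemoattractant that binds CD4, had 8, 7, 10, 9, 10, 8, 8, 10, 7 and 6 peaks. Its gained region in an intron, at chr7:83668004-83668619, was listed from 72 h on, and a promoter inside the gene was constant. Il27, the p28 subunit of IL-27, had 2, 1, 1, 2, 2, 2, 2, 2, 2 and 1 peaks. The 1 left at 120 h was its gained region at chr7:126606640-126607479 (-12175 bp), listed from 12 h on. The gained region of Il1f9, at chr2:24187503-24187980, overlapped exon 3 of 5, 1274 bp from the TSS and was listed from 72 h on. Il2, the T cell growth factor, chosen here after its values were seen, had 3 peaks at 120 h, against 2 at 0 h, none of them in a gained region. Il2, Il4ra, Il1f9, Il23a and Il10ra were the 5 members with more peaks at 120 h than at 0 h.

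Of the 0 h distal peaks of members, 48 of 177 (27.1%, 21.1 to 34.1%) overlapped a peak of the 120 h list, against 22.5% (22.1 to 22.9%) for all genes. Of the 0 h promoter peaks, 12 of 20 did (60%, 38.7 to 78.1%), against 75.0% (74.2 to 75.8%). The members' distal peaks that were kept had a median width of 520.5 bp at 0 h, against 427 bp for those that were not. For their 20 promoter peaks the order was the reverse, with 712 bp for those kept, against 786.5 bp. These widths were not computed for all genes. Seen from the end, 57 of the 74 peaks at 120 h (77.0%, 66.3 to 85.1%) overlapped a 0 h peak, against 75.0% for all genes. The interval includes the value of all genes.

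Partners that interleukin receptors share, a list of 28 genes of receptor chains, related ligands, Jak, Stat and Socs proteins, had 58 peaks at 120 h, against 132 at 0 h, or 43.9%. Fewer peaks were found at 20 of them, more at 2, and 6 had as many. These values lie near those of all genes, which had 42.7% of their 0 h peaks at 120 h, with fewer peaks at 71.4% of genes. Jak2, a kinase of IL-3 and related receptors, had 6 peaks at 120 h, against 5 at 0 h, with 1 gained region, and Cish, an inhibitor induced by Stat5, had 2, against 1. Jak1, the kinase of gamma chain and gp130 receptors, had 4 peaks at 120 h, against 15 at 0 h. Socs1, an inhibitor of Jak kinases, had 3, against 13, and Crlf2, the TSLP receptor, 5, against 13. Lif, a gp130 ligand, had 2 peaks at 120 h, against 8 at 0 h, and its receptor Lifr 5, against 10. Stat4, the factor of IL-12, had 1, against 7, and Traf3ip2, the adaptor of IL-17 receptors, 0, against 5. Differences of 3 or 4 peaks were found at Socs3 (4, against 8), Stat5b (2, against 5), Stat6 (1, against 4) and the ubiquitin ligase Traf6 (2, against 5). Csf2rb, the common beta chain, had 1 peak at 120 h, against 2 at 0 h, and the phosphatase Ptpn6 had 3 in each list.

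Markers of cell types were counted in the same way. The neutrophil and promyelocyte markers had 13 peaks at 120 h, against 15 at 0 h, a sum of opposite changes. Fewer peaks were found at 4 of them: Elane (0, against 1), Mpo (2, against 4), and Prtn3 and Ctsg (each 0, against 4). More were found at 5: Ltf (4, against 0), Cd177 (2, against 0), Camp and Ngp (each 2, against 1) and Lcn2 (1, against 0). The macrophage and monocyte markers had 13, against 20, and the T cell markers 2, against 10, of which 7 were at Tcf7. The mast cell and basophil markers had 3 peaks at 120 h, against 11 at 0 h, and Fcer1a had 0 in each list. B cell markers had 4, against 6, NK cell markers 5, against 9, and erythroid markers 2, against 4. Whether the makeup of the cultures had a part in the interleukin counts was not tested. The deposited lists held 23620 peaks at 120 h, against 55261 at 0 h.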

How the data were processed

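ATAC-seq peak lists of 20 samples were used, 1 list for both replicates of each of 10 times. Per the file headers, the authors annotated the lists with HOMER's annotatePeaks.pl against mm10. The submitters' processing notes name BWA, MACS2 2.0, STAR 2.5 and mm9, with no role or order, and whether replicates were pooled, or cut sites shifted for Tn5, is not stated there. Coordinates are given as the file headers name them, mm10, counted from 1. The deposited peak score was 0 for all peaks, so none could be ranked by score. Peaks went to the nearest gene as deposited, and 11.8% of the members' peaks lay over 50000 bp from that gene's TSS, against 20.6% of all peaks. A region took the gene of its widest peak. No model was fitted and no p-value was computed.

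The members, gene lists and definitions were chosen with earlier results of these data known. The text names each member with a gained region, 8 members by number of lost regions and 4 by number of transient ones, with ties (among members with 1 lost or 2 transient regions) broken by more regions and then by name, those whose promoter was listed at 1 end or in all 10 lists, and 14 receptors and ligands of myeloid cells. Partners were named for a difference of at least 3 peaks, 1 such partner is not reported here, and others were chosen after their values were seen. All 58 symbols were matched in the RefSeq table of GRCm38.p6, and 43 had a promoter sequence. The merging and sorting steps were tested on simulated data. Scripts ran in Python 3.11.15 with pandas 2.3.3 and numpy 2.4.6; intervals came from scipy 1.17.1, and plots from matplotlib 3.10.9.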

Additional observations from a re-analysis of the deposited data

How the results depend on the processing

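No paired analysis was possible because both replicates of a time share 1 list. Of 100 recomputed values over 15 alternatives, 78 stayed within 1.5 times their count or inside their counting interval, and 22 did not. Most of these values are counts, which cannot change sign. Of the log2 ratios, which can, 0 did. The log2 ratio of the members' peaks at 120 h to 0 h was -1.41 (distal -1.56). With every list cut to its 23620 widest peaks it was -0.28 (-0.72 to 0.16), and the distal ratio was also -0.28. There 17 regions were lost at 14 genes, 17 were constant and 13 transient. With the widest 50% of each list the ratio was -2.18 (-2.82 to -1.53) for members, an interval that leaves out the -1.23 of all genes. The distal ratio there was -2.41 (-3.17 to -1.65) for members, against -2.12 for all genes. The promoter ratio was -1.44 (-2.65 to -0.23), against -0.25. These distal and promoter intervals include the values of all genes. At that setting 2 regions were gained at 2 genes and 8 were constant. Then 1 promoter was listed at 120 h alone, 12 at 0 h alone and 6 at both, against 3, 7 and 11 in the full lists. With 96 h in place of 120 h the ratio was -0.98 (distal -1.08). With a promoter distance of 500 bp, 2 promoters were listed at 120 h alone, 6 at 0 h alone and 10 at both. With a promoter distance of 2500 bp, 1 promoter was listed at 120 h alone, 9 at 0 h alone and 17 at both. With 2 early and 2 late lists, 85 regions were lost at 42 genes, and without the 72 h list 69 were lost. Both settings let in regions last listed at 72 h. Without the 120 h list 13 regions were gained. The cause of these differences was not tested, except that fewer lists make a class easier to enter. Asking for an overlap of 50% of the shorter peak left 8 gained and 32 lost regions. Region and promoter counts at these settings were not computed over all genes.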

Other observations

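Several interleukin genes lie beside each other, and neighbours less than 300 kb apart were summed after the values of single genes were seen. The Il4, Il13 and Il5 locus of type 2 ligands (chromosome 11, 53612460 to 53725103) had 1 peak at 120 h, against 6 at 0 h, and none of its 7 regions was gained, lost, constant or transient. Of the 6 peaks at 0 h, 4 were Il5 peaks in 2 regions, so this difference rests partly on split sites. The Il24, Il20, Il19 and Il10 locus on chromosome 1 had 3 peaks at 120 h, against 8 at 0 h, all 3 of them assigned to Il10. The Il4ra and Il21r pair on chromosome 7 had 8 peaks at 120 h, against 17 at 0 h, with 2 gained, 3 lost and 5 constant regions. The Il1f9 and Il1f10 pair on chromosome 2 had 4 peaks at each of these times. Il17a and Il17f, the ligands of Il17ra made by T cells, had 0 peaks at both ends and 3 in all, at 24 and 48 h.

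By the annotation of the widest peak, 58 of the 308 member regions (18.8%) lay on a repeat, against 20.9% of all regions. Simple repeats and low complexity sequence were left out, but rRNA repeats were counted, such as that at the constant Il31ra region. The share was highest in transient regions, with 10 of 31 (32.3%), against 29.1% of all transient regions. Of the gained regions 1 of 8 lay on a repeat, the Il15 site, on an RMER19B element of the ERVK family. The median distance from the TSS was 12500 bp for gained regions, 10290 bp for constant regions and 23052.5 bp for lost regions, against 19493, 3909.5 and 23921.5 bp over all genes. Promoters were 14.3% of the members' constant regions, against 43.3% of all constant regions.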
